A study of Mus musculus with 8 samples.

Results

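Mir221 and Mir222 are neighbouring microRNA (miRNA) genes of the mouse X chromosome. They were found in the count tables by matching RefSeq symbols to mm10 coordinates, and both were present, as 2 of 2202 counted features. Each feature covers a whole hairpin, so the arms of one precursor were not counted apart. Mir221 (ENSMUSG00000065422.1) lies at chrX:19146294-19146388 and Mir222 (ENSMUSG00000065471.1) at chrX:19146893-19146971, both on the minus strand. They are 504 nt apart, no other feature or RefSeq gene overlaps either of them, and the nearest other RefSeq gene, the lncRNA gene Gm14636, begins 9500 nt beyond Mir222.

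Small RNA was sequenced from spleen B cells of Ago2HA/HA mice, in which AGO2 carries an HA tag in every group. Cells that escaped depletion of CD43-bearing cells were used resting, or after activation in culture had made them proliferate. For each state there were 2 libraries of input RNA and 2 of RNA precipitated with AGO2 by an anti-HA antibody (IP), giving 8 libraries in 4 groups. Cells lacking the tag yielded no RNA in the precipitation and were not sequenced, per the labels, so the input is the only reference for an IP. Age, sex and whether replicates came from separate animals are not given in the labels, so p-values cover only library-to-library spread, which may be technical. Library totals were 213418 to 386598 counts in the inputs and 788869 to 1681148 in the IPs, and the counts of 219 features sufficed for a test. Of the B lymphocyte markers, Mir150, Mir342 and Mir155 together held 19.4% to 38.2% of a library, while Mir142, which overlaps Mir142b on the opposite strand, was listed at 0.

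Mammalian miRNAs are cut from hairpins, and one strand is bound by an Argonaute protein, which it guides to messenger RNAs that pair with its seed, the bases near the 5′ end. Mir221 and Mir222 are made from a common primary transcript. Their main products share a seed and are known to repress the CDK inhibitor genes Cdkn1b and Cdkn1c, which hold cells out of the division cycle, and the receptor gene Kit. In mice miR-221 has been linked to the retention of early B cell progenitors in the bone marrow.

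The sequences are shown because the 2 products share their targeting end and differ elsewhere, so that full-length reads of one can be told from those of the other. They are RefSeq sequences of GRCm38.p6, written 5′ to 3′ with the seed, bases 2 to 8, in capitals.
miR-221-3p: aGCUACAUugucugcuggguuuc
miR-222-3p: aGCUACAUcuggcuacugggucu
miR-221-5p: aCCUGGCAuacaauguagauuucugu
The first 8 bases of miR-221-3p and miR-222-3p are identical, and over the 23 positions compared without gaps 11 are identical and 12 differ. Of 1738 mature entries in the RefSeq table, 3 carry this seed. The third belongs to Mir1928 on chromosome 1, which had no count in any library (0 of 5876358 counts, which allows a share of up to 5.11e-05%). The other arm, miR-221-5p, has a different seed. The precursors follow, with the listed mature RNAs in capitals.
Mir221 hairpin: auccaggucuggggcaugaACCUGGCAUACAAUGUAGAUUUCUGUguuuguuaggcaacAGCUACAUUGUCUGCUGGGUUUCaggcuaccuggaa
Mir222 hairpin: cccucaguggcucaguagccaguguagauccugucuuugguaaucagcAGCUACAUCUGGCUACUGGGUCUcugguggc

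Mir221 was least abundant in resting input and most abundant in proliferating IP. Resting cells gave 178 and 225 Mir221 counts as input and 1209 and 569 after precipitation, and proliferating cells gave 265 and 262 as input and 1374 and 2833 after precipitation. As CPM, the share of the library scaled with TMM factors, these were 499 and 553, then 903 and 762, then 748 and 919, then 2011 and 2404 CPM, in the same order. Resting IP and proliferating input overlapped, and the other neighbours in the order of levels did not. The group means were 526 ± 38.4 CPM in resting input, 832 ± 99.5 CPM in resting IP, 834 ± 121 CPM in proliferating input and 2207 ± 278 CPM in proliferating IP (mean ± SD, n = 2 here and below).

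Mir222 had a different order, with its lowest level in resting IP and its highest in proliferating input. Resting cells gave 74 and 81 Mir222 counts as input and 165 and 81 after precipitation, and proliferating cells gave 220 and 208 as input and 232 and 712 after precipitation. In CPM these were 207 and 199, then 123 and 108, then 621 and 730, then 340 and 604. All 4 proliferating libraries lay above all 4 resting libraries, and in both states each IP lay below each input. In proliferating cells that margin was narrow, with 604 CPM in an IP and 621 CPM in an input. The share of all features separated in these ways, as for Mir221 above, was not counted. The means were 203 ± 5.82 CPM in resting input, 116 ± 10.4 CPM in resting IP, 676 ± 76.9 CPM in proliferating input and 472 ± 187 CPM in proliferating IP. The proliferating IPs differed from each other: Mir222 was 0.0292% of all counts in replicate 1 (95% exact Clopper-Pearson interval 0.0255 to 0.0332) and 0.0517% in replicate 2 (0.0480 to 0.0557). Such intervals cover counting error only.

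**Figure D1:**
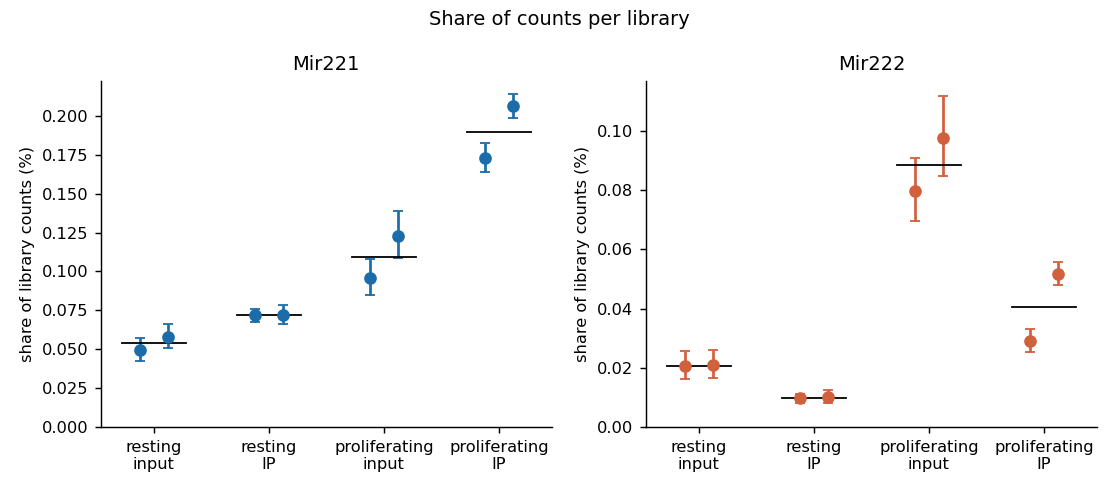
Share of each library's counts, in percent and without TMM factors, for Mir221 (left) and Mir222 (right). Points are single libraries with exact 95% binomial intervals and lines are group means: Mir221 is highest in the proliferating IPs (0.173% and 0.206%), and Mir222 in the proliferating inputs (0.0796% and 0.0975%).

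Together the 2 genes took 0.0702% and 0.0792% of the counts of resting input and 0.0817% and 0.0824% of those of resting IP. In proliferating cells they took 0.176% and 0.220% of the inputs and 0.202% and 0.258% of the IPs. The summed share was therefore higher in every proliferating library than in any resting one, while input and IP overlapped in proliferating cells. Features were also ranked by CPM per nt of feature length, which is that of the hairpin and does not compare the mature RNAs. Among the 219 tested features, Mir221 stood between 70th place in a resting input and 35th in a proliferating IP. Mir222 stood between 103rd in a resting IP and 55th in a proliferating input.

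The first comparison asks how the pair differs between resting and proliferating cells before AGO2 is selected. In the input Mir222 was lower in resting cells, 203 ± 5.82 against 676 ± 76.9 CPM, a 3.32-fold difference (log2 fold change -1.73, SE 0.38, edgeR quasi-likelihood test with Benjamini-Hochberg adjusted p = 2.5e-04). Mir221 was at 526 ± 38.4 against 834 ± 121 CPM and did not pass (log2 fold change -0.66, 95% interval -1.30 to -0.03, edgeR adjusted p = 0.076). Intervals of fold changes, here and below, are not adjusted for the 219 features tested, so one can exclude 0 where the adjusted p does not pass. Both resting libraries of each gene lay below both proliferating ones, and the share of all features separated in this way was not counted. Of all 219 features 49.3% passed in this comparison, so that 1 of the 2 genes passing is near the background. The Mir221 call changed with the setting: it passed with library totals in place of TMM (-1.02, edgeR adjusted p = 0.0058), with a minimum count of 50 (-0.68, edgeR adjusted p = 0.033) and with only the compared libraries (-0.64, edgeR adjusted p = 0.013), and with upper-quartile factors it was -0.29 (edgeR adjusted p = 0.41). Library totals moved the median of all features by -0.36 and upper-quartile factors by 0.36, and relative to that median Mir221 stood at -0.62, -0.62 and -0.61 with TMM, library totals and upper-quartile factors.

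Among the RNAs precipitated with AGO2 both genes were lower in resting cells. Mir221 was at 832 ± 99.5 CPM in resting and 2207 ± 278 CPM in proliferating IP, a 2.65-fold difference (log2 fold change -1.41, SE 0.31, edgeR adjusted p = 1.6e-04). Mir222 was at 116 ± 10.4 against 472 ± 187 CPM, a 4.07-fold difference (log2 fold change -2.02, SE 0.38, adjusted p = 1.5e-05 in the same edgeR fit). Both genes passed, where 52.1% of all features did. Libraries of the 2 states did not overlap for either gene, and the share of all features separated in this way was not counted. With upper-quartile factors the log2 fold changes were -0.74 for Mir221 and -1.33 for Mir222, both still past the threshold (edgeR adjusted p = 0.039 and 0.0039). Those factors moved the median of all features by 0.67, and relative to that median Mir221 stood at -1.19 with TMM as with upper-quartile factors.

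In these bulk libraries, fewer cells of a type and less RNA per cell cannot be told apart. Mir126a, the marker of endothelial cells and platelets with counts, lay at 0.0173% to 0.0253% of the resting inputs and 0.0626% to 0.0820% of the proliferating inputs. In the IPs it lay at 0.00613% to 0.0147% in resting and 0.0889% to 0.176% in proliferating cells, so it was higher in proliferating cells in both fractions. The other marker of that list, Mir126b, was at 0 in all libraries, and Mir126a lies opposite it. The myeloid Mir223 went the other way, at 1.153% to 2.94% of resting and 0.0695% to 0.339% of proliferating libraries. Erythroid markers, 2 of 3 named in the tables and both with counts, summed to 0.00684% to 0.0259% of resting and 0.000218% to 0.00281% of proliferating libraries. Of 7 stromal markers 5 had counts, with a sum of 0.139% to 0.378% in resting and 0.0839% to 0.133% in proliferating libraries, while Mir199a-2 and Mir214 were at 0. The 5 epithelial markers, all with counts, summed to 0.109% to 0.209% in resting and 0.0380% to 0.0759% in proliferating libraries. The hepatocyte Mir122 stayed at or below 0.00796% and the neural markers, 2 of 6 with counts, at or below 0.000362% of any library. Of 5 muscle markers all were at 0. The part of such cells in the levels of Mir221 and Mir222 was not tested.

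The next comparison asks how each gene is represented with AGO2 relative to the input. In proliferating cells Mir221 was higher in the IP, 2207 ± 278 against 834 ± 121 CPM, a 2.65-fold difference (log2 fold change 1.41, SE 0.31, edgeR adjusted p = 5.2e-04). Mir222 was at 472 ± 187 CPM in the IP against 676 ± 76.9 CPM in the input and did not pass (log2 fold change -0.51, 95% interval -1.24 to 0.22, edgeR adjusted p = 0.32). Of all features 26.9% passed here. With library totals Mir221 was at 0.79 (edgeR adjusted p = 0.031) and Mir222 passed at -1.13 (edgeR adjusted p = 0.019), but that scaling moved the median of all features by -0.61, and relative to the median Mir221 stayed at 1.29 and Mir222 at -0.63, as with TMM. Mir222 was at -0.99 without proliferating IP replicate 2. With TMM factors that left out the 10 most abundant features, Mir222 was at -0.27 (edgeR adjusted p = 0.55). Those factors moved the median of all features by 0.24, and relative to that median Mir222 stayed at -0.63.

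In resting cells neither gene passed, and their estimates had opposite signs. Mir221 was at 832 ± 99.5 CPM in the IP and 526 ± 38.4 CPM in the input (log2 fold change 0.66, 95% interval 0.04 to 1.29, edgeR adjusted p = 0.10). Mir222 was at 116 ± 10.4 CPM in the IP and 203 ± 5.82 CPM in the input (log2 fold change -0.81, 95% interval -1.57 to -0.04, edgeR adjusted p = 0.10). Of all features 28.8% passed. Input and IP libraries did not overlap for either gene, but the share of all features separated in this way was not counted. Mir221 was past the threshold with upper-quartile factors (0.81, edgeR adjusted p = 0.049) and in DESeq2 (0.72, adjusted p = 0.045), and Mir222 with library totals (-1.05, edgeR adjusted p = 0.030). Upper-quartile factors moved the median of all features by 0.16 and library totals by -0.24, and relative to the median Mir221 stood at 0.70 and Mir222 at -0.76 there, against 0.72 and -0.75 with TMM.

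The representation in the IP was not shown to differ between the states for either gene. The difference of IP against input between resting and proliferating cells was -0.74 for Mir221 (log2 scale, 95% interval -1.62 to 0.14, edgeR adjusted p = 0.25). For Mir222 it was -0.29 (95% interval -1.34 to 0.76, edgeR adjusted p = 0.75), and 0.19 without proliferating IP replicate 2. It was 0.075 with library totals and 0.041 with upper-quartile factors, which moved the median of all features by 0.36 and 0.30, and relative to that median it stayed below 0 (-0.12 with TMM, -0.11 and -0.087). Of all features 17.4% passed. The 5 contrasts share libraries, so their values are set side by side and are not independent.

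**Figure D2:**
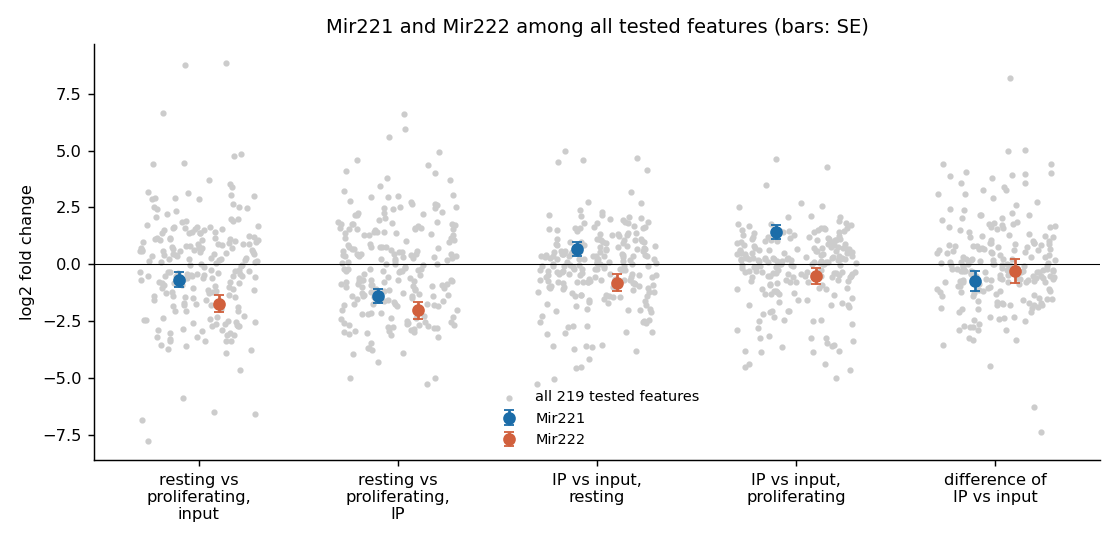
Log2 fold changes (vertical axis) of Mir221 and Mir222, with bars of 1 SE, over all 219 tested features (grey points, spread sideways at random) in the 5 contrasts. Both genes lie below 0 in the contrasts of resting with proliferating cells (-0.66 and -1.73 in input, -1.41 and -2.02 in IP), and they lie on opposite sides of 0 in IP against input.

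The balance between the 2 genes can be read within each library, with no scaling between libraries. Mir222 made up 29.4% and 26.5% of the pair's counts in the resting inputs and 45.4% and 44.3% in the proliferating inputs. It made up 12.01% and 12.5% in the resting IPs and 14.4% and 20.1% in the proliferating IPs. All 4 IP libraries lay below all 4 inputs, and their exact 95% intervals did not overlap: the highest IP had an interval of 18.8 to 21.4, and the lowest input one of 21.6 to 31.8. The intervals of resting and proliferating input did not overlap either (up to 35.4 against 39.7 and above), while that of proliferating IP replicate 1 (12.8 to 16.3) overlapped both resting IPs. The 2 proliferating IPs, replicates of one group, did not overlap each other either (12.8 to 16.3 and 18.8 to 21.4). These intervals cover counting error only, so their separation does not by itself mark a difference between groups.

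The count ratio of Mir222 to Mir221 was 0.388 ± 0.0394 in resting input, 0.139 ± 0.00416 in resting IP, 0.812 ± 0.0257 in proliferating input and 0.210 ± 0.0583 in proliferating IP. Divided by the length of the hairpin features, 95 and 79 nt, it ran from 0.164 in a resting IP to 0.998 in a proliferating input. The undivided ratio in that input was 0.830. Both listed 3p products are 23 nt long, so the division by hairpin length does not compare the mature RNAs. Over both states the log2 ratio was lower in the IP by 1.73 on average, a 3.31-fold difference. It was lower in 8 of 8 comparisons of an IP with an input of the same state, which share libraries and are not independent. An exact permutation test of input and IP labels within each state gave p = 0.056 (2-sided), the smallest that its 36 arrangements allow, so this design could not pass 0.05. Permuted freely, 4 libraries against 4 and without regard to state, the exact test gave p = 0.029. That is the smallest p its 70 arrangements allow, and any full separation of IPs from inputs gives it. The difference was -1.47 in resting and -1.98 in proliferating cells, against a pooled SD of 0.22 between replicates.

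Between the states the log2 ratio was lower in resting cells by 0.82 on average, a 1.76-fold difference. This again held in 8 of 8 comparisons within a fraction, which likewise share libraries. The exact permutation test within fractions again gave the smallest p it allows, 0.056 (2-sided). The difference was -1.07 in the inputs and -0.56 in the IPs. The exact test with labels permuted freely gave p = 0.34 here, since input and IP libraries are then mixed.

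**Figure D3:**
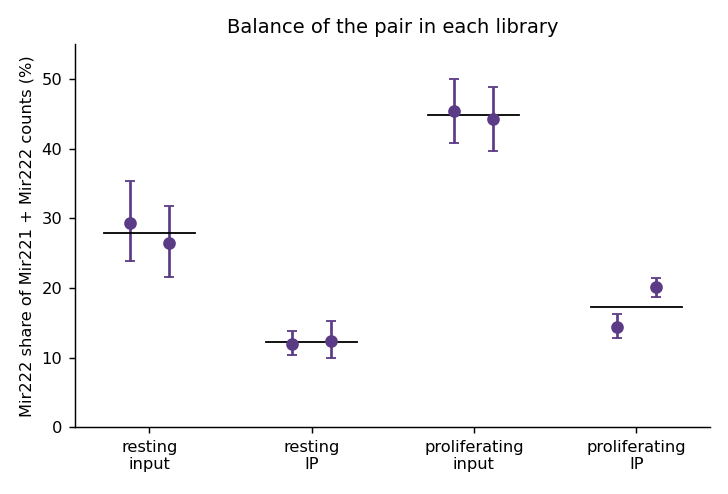
Mir222 as a percentage of the summed counts of Mir221 and Mir222 in each library (points, with exact 95% binomial intervals) and the group means (lines). The 4 IP libraries lie between 12.01% and 20.1%, all below the inputs at 26.5% to 45.4%.

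Neighbouring miRNA genes are often made from one transcript, and a shift in their ratio was measured for other such genes in the same way. Tested named features on one strand at most 10 kb apart, with at least 20 counts in every library, formed 31 pairs, many of which share a gene. For Mir222 to Mir221 the mean shift in log2 ratio from input to IP was -1.73, and the median size over the pairs was 0.787. A larger shift was found for 3 pairs: Mir27a to Mir23a (-2.41), Mir30d to Mir30b (-2.17) and Mir92-2 to Mir363 (1.94). Over the 8 libraries the log2 ratio of Mir222 to Mir221 spanned 2.60, which was 10th of 31, between 3.87 for Mir98 to Mirlet7f-2 and 0.741 for Mir106b to Mir25. Mir92-2 and members of other miRNA families have near-identical copies elsewhere, so their counts are uncertain.

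**Figure D4:**
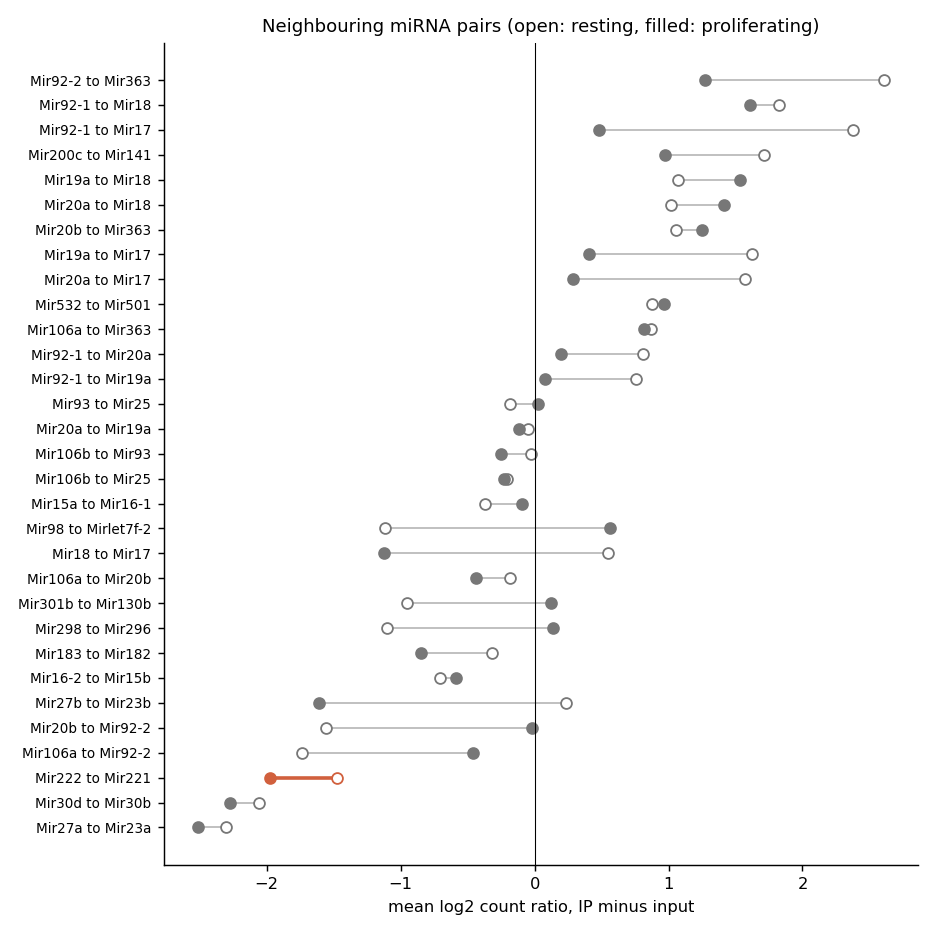
Mean difference in log2 count ratio between IP and input (horizontal axis) for 31 pairs of neighbouring miRNA genes, in resting (open) and proliferating cells (filled). Mir222 to Mir221 (orange) lies at -1.47 and -1.98, and only Mir30d to Mir30b and Mir27a to Mir23a have a lower mean.

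The levels of the 2 genes over the 8 libraries resembled those of different miRNAs. Likeness was measured as Pearson's r of log2 CPM with each of 212 other named tested features, which describes these libraries only, since they share 4 groups and their scaling. Nearest to Mir221 were Mir19a (r = 0.986), Mir93 (0.970), Mir20a (0.937), Mir101b (0.935) and Mir25 (0.933). Mir19a and Mir20a belong to the miR-17 cluster and Mir93 and Mir25 to its paralog in the Mcm7 gene, miRNAs known to promote lymphocyte growth.

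Nearest to Mir222 were Mir183 (r = 0.978), Mir34a (0.961), which is induced by p53, Mir298 (0.959), Mir1934 (0.952) and Mir212 (0.945), which is induced by CREB. Mir1934 and Mir212 had 115 and 122 counts over all libraries and as few as 0 and 1 in a single one. No feature was among the nearest 5 of both genes. Mir222 itself ranked 77th in likeness to Mir221, and Mir221 ranked 74th in likeness to Mir222 (r = 0.43).

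Other miRNAs known to act on the same step of the cell cycle, or in activated lymphocytes, give the setting of these values. Of 7 miRNAs known to repress CDK inhibitor genes, all of them genes of the miR-17, miR-106a and miR-106b clusters, 5 were lower in resting input (Mir17, Mir20a, Mir93, Mir20b and Mir106a) and none was higher, with a median log2 fold change of -1.16 against -0.04 over all features. In resting IP 6 of 7 were lower, all but Mir106b, with a median of -1.99 against -0.21. Of all features 26.0% were lower in resting input and 28.3% in resting IP.

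In proliferating cells all 7 were higher in the IP than in the input, where 13.2% of all features were, with a median log2 fold change of 1.31 against 0.11. Mir20a was at 1.40 (SE 0.27, edgeR adjusted p = 8.0e-05), and Mir221 with 1.41 stood within the range of this list, while Mir222 with -0.51 lay below every member. In resting cells 3 were higher in the IP (Mir20a, Mir25 and Mir93), Mir17 was lower (-0.77, edgeR adjusted p = 0.042), and 3 did not pass, where 13.2% of all features were higher and 15.5% lower.

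Of 9 miRNAs of lymphocyte activation, 8 were lower in resting input, all but Mir146 (-0.44, edgeR adjusted p = 0.091), where 26.0% of all features were lower, and the median was -3.11 against -0.04 over all features. In resting IP 6 were lower (Mir155, Mir132, Mir212, Mir182, Mir183 and Mir96), where 28.3% of all features were, with a median of -3.65 against -0.21. Mir155, made from a transcript that activation induces, differed by -3.37 in input and -3.65 in IP (SE 0.24 in both, edgeR adjusted p = 4.9e-15 and 5.4e-16), more than either gene of the pair in log2 terms. Between IP and input, Mir21a was higher in the IP in both states (1.30 and 1.18, edgeR adjusted p = 1.2e-05 and 5.6e-05), Mir146 was higher in resting cells, Mir132 was lower in resting cells and Mir146b was lower in proliferating cells. These were 2 of 9 higher and 1 lower in resting cells, and 1 higher and 1 lower in proliferating cells, where 13.2% of all features were higher in each state and 15.5% and 13.7% were lower. The list's median was -0.43 against -0.05 over all features in resting cells and 0.27 against 0.11 in proliferating cells.

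miRNAs known to repress cyclins, CDKs or their activators, among them the let-7, miR-15, miR-26 and miR-34 families, went both ways. Of 24 in this list 18 were tested. In resting input 5 were higher and 4 lower, and in resting IP 10 were higher and 3 lower. Over all features 23.3% were higher and 26.0% lower in resting input, and 23.7% higher and 28.3% lower in resting IP. Mir26b was higher in resting cells by 0.54 in input and 2.19 in IP (edgeR adjusted p = 0.048 and 2.8e-10), the opposite sign to Mir221 and Mir222. Mirlet7i was lower in resting input (-0.60, edgeR adjusted p = 0.043), the sign of the pair, and higher in resting IP (1.67, edgeR adjusted p = 4.6e-07). Mirlet7d was at -0.50 in input and 0.68 in IP (edgeR adjusted p = 0.11 and 0.031). Mir15b was at 0.36 and -0.28 (edgeR adjusted p = 0.21 and 0.32). The list's median was 0.15 in input and 1.54 in IP, against -0.04 and -0.21 over all features. Between IP and input 7 were higher in the IP and none was lower in resting cells, where 13.2% of all features were higher and 15.5% lower. In proliferating cells 1 was higher, Mir15b, and 4 were lower, against 13.2% and 13.7% of all features. Copies of let-7a, let-7c, miR-16 and miR-26a share reads, so the counts of single members are uncertain.

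**Figure D5:**
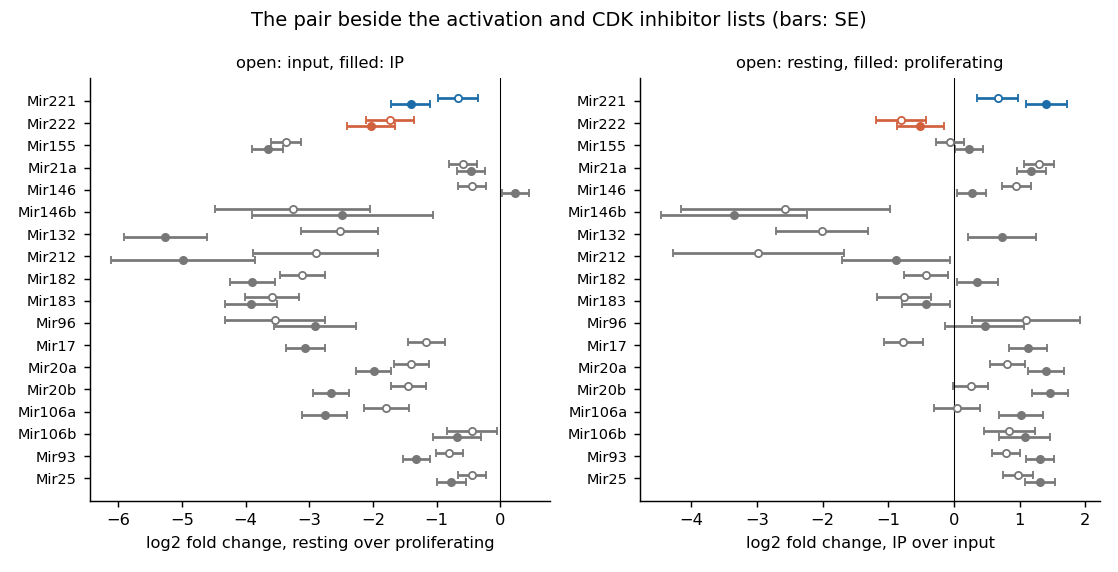
Log2 fold changes with bars of 1 SE for Mir221 (blue), Mir222 (orange) and the members of the activation and CDK inhibitor lists (grey), for resting over proliferating cells (left) and IP over input (right). Mir221 (1.41 in proliferating cells) lies among the 7 miRNAs from Mir17 down to Mir25 on the right, and Mir222 (-0.81 and -0.51) lies below 0.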

How the data were processed

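For 8 libraries, raw counts of each miRNA gene were deposited, 1 table per cell state; the authors aligned reads with STAR 2.7.9a to mm10 and used SAMtools 1.15, per the submitters' processing notes, and the column names refer to deduplicated alignments, per the file headers. No source used here gives the counter, its strand setting or its treatment of multiply mapped reads. Features were named by exact coordinates in RefSeq (GRCm38.p6), which named 1179 of 2202. Cell state and table coincide. Features passing filterByExpr (minimum count 10) were scaled with TMM factors (0.797 to 1.34) and fitted with edgeR 4.0.16 in R 4.3.3 (quasi-likelihood, 4 groups, no covariate, 4 residual and 36.6 prior degrees of freedom). SE is the absolute log2 fold change over the square root of F, and 95% intervals use the t distribution with those degrees of freedom. These intervals are not adjusted for the number of features tested. The threshold was an adjusted p of 0.05. The fit was tested on simulated data for the comparison of states in the input only. The simulated dispersion (spread between replicates) was lower than the 0.0917 estimated for these data. Replicate libraries were distinct: a chi-square of their counts was at least 8.56 for each degree of freedom.

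Members, lists and the rule for named genes (the pair, its seed, the 5 most similar features, list examples by abundance, neighbouring pairs) were chosen with earlier results of these data known. A whole list's called members are named where few. Alternatives were other scalings, DESeq2 1.42.0, limma 3.58.1 voom, other filters, fewer libraries and the replicate number as a block. Replicate numbers were not taken as pairs, since the labels name no shared source.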

Additional observations from a re-analysis of the deposited data

How the results depend on the processing

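Mir221 and Mir222 in the IP between states, Mir222 in the input between states and Mir221 in the proliferating IP against input stayed past 0.05 in the same direction under all 18 alternatives. Mir221 between states in the input passed with library totals (-1.02), with a minimum count of 50 (-0.68) and with only the compared libraries (-0.64). In resting IP against input, Mir221 passed with upper-quartile factors (0.81), DESeq2 (0.72) and only the compared libraries (0.91), and Mir222 with library totals (-1.05). In proliferating IP against input Mir222 passed with library totals (-1.13) and was at -0.99 without proliferating IP replicate 2. The difference of IP against input between the states for Mir222, -0.29, was 0.041 with upper-quartile factors, 0.075 with library totals, and from -0.51 to 0.19 when 1 library was left out. The count ratio shift from input to IP (-1.73) passed only when permuted freely, without regard to cell state, at the smallest p possible there. It was -1.47 in resting and -1.98 in proliferating cells alone. Between states the shift was -1.07 in input and -0.56 in IP alone. Library totals and upper-quartile factors shift all features together: relative to the median of all features, Mir222 in the difference between states stayed at -0.11 and -0.087 (-0.12 with TMM), and with library totals Mir222 in IP against input stayed at -0.76 in resting and -0.63 in proliferating cells. For the other settings the causes were not tested.

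With the replicate number as a block, no call for the pair changed: Mir221 between states in the input was at -0.66 (edgeR adjusted p = 0.10) and Mir222 at -1.72 (adjusted p = 1.6e-04). Deviations of same-numbered libraries correlated from -0.12 to 0.18. The number of features called in proliferating IP against input, 59, was 35 without proliferating input replicate 1 and 31 without proliferating IP replicate 2. For the difference between states, 38 became 25 with DESeq2 size factors, 22 with upper-quartile factors, 24 without resting input replicate 1, 15 and 21 without proliferating input replicate 1 and 2, and 20 without proliferating IP replicate 1. The split of calls into higher and lower moved with scaling: from 51 and 57 to 37 and 75 (library totals) or 59 and 39 (upper quartile) between states in input, from 52 and 62 to 75 and 38 (upper quartile) in IP, from 29 and 34 to 33 and 23 (upper quartile) for resting IP against input, from 29 and 30 to 16 and 60 (library totals) or 34 and 18 (TMM without the 10 most abundant features) for proliferating IP against input, and from 17 and 21 to 20 and 7 (library totals), 15 and 7 (upper quartile) or 11 and 29 (TMM without the 10 most abundant features) for the difference. The restricted fit of compared libraries was not run for that difference, which needs all 8. Counts of 74 and 81 limit the precision of Mir222 in the resting inputs, as do counts of 165 and 81 in the resting IPs.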
